A study of Mus musculus with 4 samples.

Results

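The DNA methylation machinery was followed through 8 genes, *Dnmt1*, *Uhrf1*, *Dnmt3a*, *Dnmt3b*, *Dnmt3l*, *Tet1*, *Tet2* and *Tet3*, in single-cell transcriptomes of the mouse testis at postnatal day (P) 8. The genes were chosen by symbol, and all 8 were found among the 30828 genes listed. The control mice were *Cnot3* flox/flox, labelled wild-type, and the *Cnot3*-cKO mice were *Cnot3* flox/flox; *Ddx4*-creER, in which a 4-OHT-inducible Cre under the germ cell gene *Ddx4* deletes *Cnot3*, a subunit of the CCR4-NOT deadenylase. Mice of both genotypes thus carried floxed *Cnot3* and received 4-OHT from P1, and sorted CD9+/THY1+ testis cells were profiled with droplet-based 3′ single-cell RNA-seq. The labels end the injections on P1 and P2 for the control samples and on P3 and P4 for the *Cnot3*-cKO samples, whereas the study's methods give 1 course for all neonatal mice. The 2 samples of each genotype are merged in 1 matrix, so the comparison is between 1 control and 1 *Cnot3*-cKO library. There is no replicate and no test. Levels are given as unique molecular identifiers (UMIs) per 1000000 UMIs of a class of barcodes (CPM), with exact 95% Poisson intervals, and differences as log2 ratios with exact 95% intervals. Both kinds of interval cover counting error only and are narrower than the spread between animals would be.

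Methylated cytosine is copied and erased by distinct enzymes. DNMT1 restores methylation on the new strand behind the replication fork, and UHRF1 recognises half-methylated DNA and brings DNMT1 to it. DNMT3A and DNMT3B methylate unmethylated sites, and DNMT3L is a cofactor without catalytic activity that acts with them in germ cells. TET1, TET2 and TET3 oxidise methylcytosine, which starts its removal. In the male germ line the genome is remethylated in prospermatogonia. Spermatogonia divide and differentiate on that pattern, first as *Gfra1*-expressing stem-like cells, then as *Neurog3*-expressing progenitors and *Kit*-expressing differentiating cells.

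Germ barcodes were those with 10 or more UMIs of *Ddx4* plus *Dazl*, 1325 in control and 547 in *Cnot3*-cKO, with a median of 42507 and 46830 UMIs. All 6 further germ cell markers were present in them at a summed 1040 and 1236 CPM, against 12.6 and 8.93 CPM in barcodes of Sertoli cells. Stage classes were set by 2 or more UMIs of *Gfra1* plus *Lhx1* (stem-marker, 213 and 175 barcodes in control and *Cnot3*-cKO), *Neurog3* (104 and 5), *Kit* (336 and 96) or *Meioc* (104 and 32). A further 386 and 143 barcodes held no stage marker at that level and 182 and 96 held several. Of the no-marker barcodes, 268 and 91 held 1 UMI of a stage marker, and of the stem-marker barcodes 57 and 24 lay at the minimum of 2 UMIs. The 5 stem cell genes not used for the classes (*Etv5*, *Id4*, *Eomes*, *Nefm* and *Ret*) summed to 348 and 521 CPM in stem-marker barcodes and to 14 and 27.3 CPM in *Kit*-marker barcodes. Somatic barcodes, with at most 2 UMIs of *Ddx4* plus *Dazl*, were classed by Sertoli markers (2878 and 4344) or by interstitial markers of myoid cells and stroma (3874 and 4148). Markers not used for these classes summed to 2375 and 2439 CPM in Sertoli-marker and to 2077 and 2076 CPM in interstitial-marker barcodes. The libraries shared 18 of 17509 barcodes, 1 of them in germ cells. *Cnot3* itself stood at 71.2 CPM in control and 39.4 CPM in *Cnot3*-cKO germ barcodes, at a log2 ratio of -0.85 (-0.95 to -0.75), and at 63.5 and 67.4 CPM in Sertoli-marker barcodes. The *Cnot3* ratio was not the same in all stages. It was -1.01 (-1.22 to -0.80) in stem-marker and -1.06 (-1.29 to -0.84) in no-marker barcodes. In *Kit*-marker barcodes it was -0.59 (-0.80 to -0.39) and in *Meioc*-marker barcodes -0.30 (-0.70 to 0.08). Whether the counted 3′ end lies in the deleted part is not given in the sources used here.

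**Figure D1:**
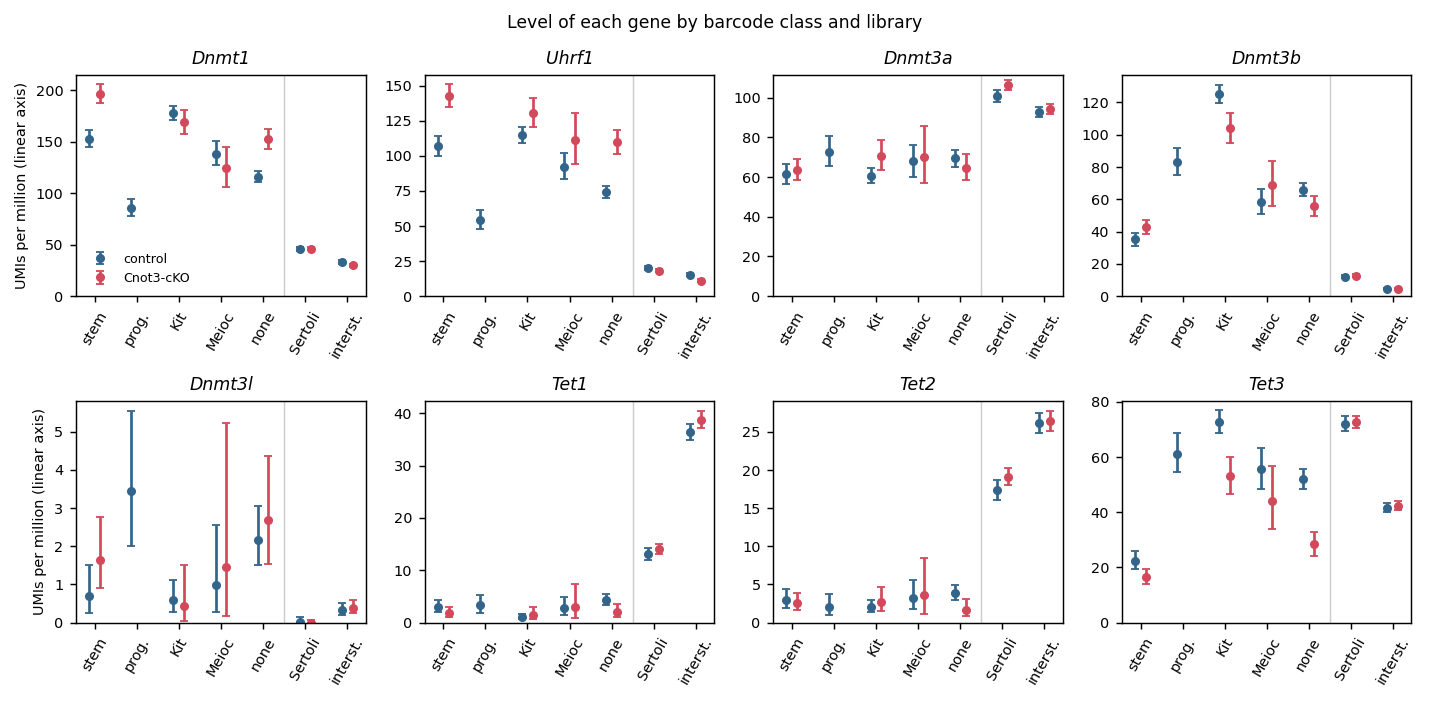
Level of each gene in CPM (linear axis, 1 scale per panel) by barcode class, in the control (blue) and *Cnot3*-cKO (red) libraries; bars are exact 95% Poisson intervals. Germ classes by stage marker stand left of the grey line and somatic classes right of it, and the *Neurog3* class of *Cnot3*-cKO, with 5 barcodes, is not drawn. *Dnmt3b* and *Tet3* are lowest among germ classes in stem-marker barcodes, while *Tet1* and *Tet2* stand higher in the somatic classes.

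The de novo enzyme *Dnmt3b* (chr2:153649450-153687730, plus strand, GRCm38) and the oxidase *Tet3* (chr6:83362373-83459084, minus strand) set the stem-marker barcodes apart from all other germ classes. *Dnmt3b* stood at 35.1 CPM (31.3 to 39.3) in stem-marker barcodes of the control library, at 58.4 in *Meioc*-marker, 66.0 in no-marker, 83.2 in *Neurog3*-marker and 125 (120 to 131) in *Kit*-marker barcodes. The intervals of the *Meioc* and no-marker classes overlapped, and those of the other neighbours in this order did not. In *Cnot3*-cKO it stood at 42.9 CPM in stem-marker, 55.8 in no-marker, 68.7 in *Meioc*-marker and 104 in *Kit*-marker barcodes. Stem-marker barcodes were thus the lowest and *Kit*-marker barcodes the highest of these classes in both libraries.

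*Tet3* gave the same order at its ends. In control it stood at 22.4 CPM (19.4 to 25.8) in stem-marker, 52.0 in no-marker, 55.7 in *Meioc*-marker, 61.2 in *Neurog3*-marker and 72.8 (68.6 to 77.2) in *Kit*-marker barcodes, and the intervals of the 3 middle classes overlapped. In *Cnot3*-cKO it stood at 16.6 CPM in stem-marker, 28.3 in no-marker, 44.1 in *Meioc*-marker and 53.1 in *Kit*-marker barcodes.

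The log2 ratio of *Kit*-marker over stem-marker barcodes was 1.83 for *Dnmt3b* in control and 1.28 in *Cnot3*-cKO, and 1.70 and 1.68 for *Tet3*. In the control library these ratios were higher than those of 98.7% and 98.4% of 10505 genes, and in *Cnot3*-cKO than those of 98.1% and 99.4% of 9273 genes. They were the only 2 of the 5 members with 100 or more UMIs in these classes to pass 1.5-fold in either library; 17.9% of all genes did so upwards in control and 14.3% in *Cnot3*-cKO. *Dnmt1*, *Uhrf1* and *Dnmt3a* had ratios of 0.22, 0.10 and -0.02 in control and of -0.22, -0.13 and 0.15 in *Cnot3*-cKO. Under the study's stated filters the *Cnot3*-cKO ratios of these 3 genes were 0.05, -0.46 and 1.19. Those filters left 713 genes with 100 or more UMIs in this comparison, and *Dnmt3a* was not among them.

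The difference between stages was also present per barcode. In control the median stem-marker barcode held 1 UMI of *Dnmt3b* (interquartile range 0 to 2) and the median *Kit*-marker barcode 5 (3 to 8), at median depths of 41358 and 44564 UMIs. With each barcode thinned to 10000 UMIs, 27.1% of 210 stem-marker barcodes (exact binomial 95% interval 21.3% to 33.7%) and 72.8% of 334 *Kit*-marker barcodes (67.6% to 77.5%) held *Dnmt3b*, against 68.5% and 96.7% unthinned. In *Cnot3*-cKO the thinned shares were 36.2% of 174 and 66.7% of 96 barcodes. For *Tet3* they were 18.6% and 50.9% in control and 14.9% and 42.7% in *Cnot3*-cKO. Thinned shares in Sertoli-marker barcodes of control were 11.4% for *Dnmt3b* and 49.7% for *Tet3*.

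The *Neurog3* class of the control library had higher *Dnmt3b* and *Tet3* and lower maintenance genes than stem-marker barcodes. Against stem-marker barcodes, *Dnmt3b* was higher by 1.24 (1.03 to 1.46) and *Tet3* by 1.45 (1.18 to 1.72) on the log2 scale, and *Dnmt1* was lower at -0.83 (-0.996 to -0.676) and *Uhrf1* at -0.97 (-1.17 to -0.77). Upwards past 1.5-fold went 6.98% of 9130 genes and downwards 9.16%. *Dnmt1* stood there at 85.8 CPM and *Uhrf1* at 54.5, the lowest of the control germ classes for both, and the 14 replication genes summed to 1069 CPM against 1857 in stem-marker barcodes. The 5 *Neurog3*-marker barcodes of *Cnot3*-cKO held 14 UMIs of *Dnmt1* and 25 of *Dnmt3b*, too few to set beside the control class.

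*Dnmt1* (chr9:20907209-20959888, minus strand) and its recruiter *Uhrf1* (chr17:56303321-56323486, plus strand) varied with the replication genes. Across 20 class profiles, 10 in each library, the log2 levels of *Dnmt1* and *Uhrf1* correlated at r = 0.94. Among 12939 genes with 500 or more UMIs, those most like *Dnmt1* were the DNA ligase gene *Lig1* and the replicative helicase genes *Mcm3* and *Mcm5* (r = 0.97, 0.97 and 0.96), and those most like *Uhrf1* were *Mcm5*, the nuclear pore gene *Nup153* and the replication initiation gene *Mcm10* (0.98, 0.97 and 0.97). The profiles of 1 library share their depth and free RNA, and germ and somatic profiles stand apart, so these values are a description.

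Germ barcodes were then split in 3 ranges by the summed level of 14 replication genes (*Mcm2*, *Mcm3*, *Mcm4*, *Mcm5*, *Mcm6*, *Mcm7*, *Pcna*, *Gins2*, *Rrm1*, *Rrm2*, *Cdc6*, *Cdc45*, *Slbp* and *Ung*, no member among them), cut at 1380.5 and 2165 CPM over both libraries. *Dnmt1* stood at 98.2, 160.2 and 205 CPM in the low, middle and high range of control and at 105, 161 and 209 CPM in *Cnot3*-cKO. *Uhrf1* stood at 56.7, 101 and 144 CPM in control and at 73.9, 106 and 160.4 CPM in *Cnot3*-cKO. The high over low log2 ratio was 1.06 and 0.99 for *Dnmt1* and 1.34 and 1.12 for *Uhrf1*, with stages pooled. *Dnmt3a* went the other way, from 75.5 to 52.9 CPM in control and from 74.97 to 62.3 CPM in *Cnot3*-cKO. In stem-marker barcodes the high over low ratio was 0.92 and 0.94 for *Dnmt1* and 1.24 and 0.95 for *Uhrf1*. In no-marker barcodes it was 1.11 and 0.73, and 1.43 and 1.08. In *Kit*-marker barcodes it was 0.40 (0.21 to 0.60) and 0.92 (0.26 to 1.67) for *Dnmt1*. For *Uhrf1* it was 0.60 (0.34 to 0.85) and 0.74 (0.02 to 1.57) there, with 6 *Cnot3*-cKO barcodes in the low range. The ranges are sections of a continuous score and not cell types. Across single germ barcodes after thinning, the Spearman correlation of *Dnmt1* with the replication genes was 0.31 in control and 0.22 in *Cnot3*-cKO. That of *Uhrf1* was 0.28 in both libraries.

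Promoter windows of the members, from 250 bases before to 50 after each RefSeq start site (GRCm38.p6), were searched for an E2F-type site, the motif shared by many replication genes. It was spelled in 4 forms, TTTCCCGC, TTTCGCGC, TTTGCCGC and TTTGGCGC, on both strands. Of the 8 members, *Dnmt1* and *Uhrf1* held a match, and the 6 others held none in these windows. Both genes also had windows at other start sites, and those held no match. By gene, 704 of 27025 genes (2.605%) and 5 of the 12 replication genes with a window (*Mcm3*, *Mcm5*, *Mcm6*, *Mcm7* and *Cdc6*) held one. The matches are shown because these are the members whose levels went with the replication genes; capitals mark the motif, read on the strand of the gene, and the first *Dnmt1* match is the reverse complement of TTTCGCGC.
Dnmt1, chr9:20952824-20952853, minus strand: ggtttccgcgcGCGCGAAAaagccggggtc
Dnmt1, chr9:20952574-20952601, minus strand: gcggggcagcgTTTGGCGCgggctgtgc
Uhrf1, chr17:56304117-56304146, plus strand: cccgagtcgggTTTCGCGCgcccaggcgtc
The first *Dnmt1* match begins 219 bases before the start site of its window and the second 33 bases after it, and both lie in an exon of *Dnmt1* in GENCODE M21. The *Uhrf1* match begins 185 bases before its start site, outside annotated exons. A match is a run of letters and was not tested as a site.

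**Figure D2:**
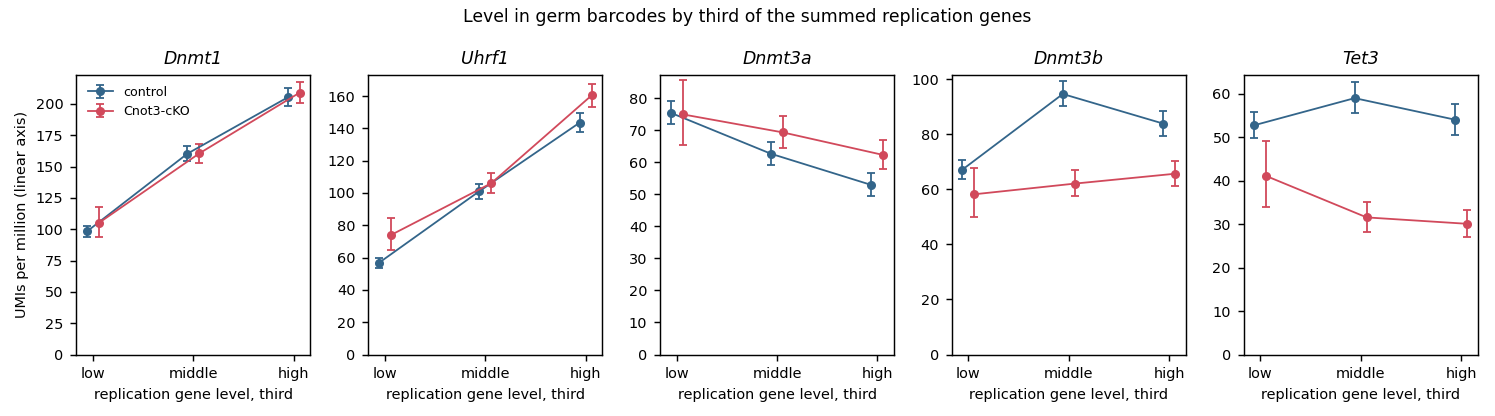
Level in germ barcodes (CPM, linear axis) of 5 genes in the low, middle and high range of the summed replication genes, in the control (blue) and *Cnot3*-cKO (red) libraries; bars are exact 95% Poisson intervals. With stages pooled, *Dnmt1* nearly coincides between the libraries in each range, while *Tet3* is lower in *Cnot3*-cKO in every range.

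Over all germ barcodes, 0 of the 8 members were higher by 1.5-fold or more in *Cnot3*-cKO than in control, where 6.4% of 13321 genes were, and 2 were lower, *Tet3* and *Tet1*, where 3.42% of genes were. *Tet3* stood at 55.1 CPM (53.2 to 57.1) on 3135 UMIs in control and at 31.9 CPM (29.8 to 34.2) on 824 UMIs in *Cnot3*-cKO, with a log2 ratio of -0.79 (-0.90 to -0.68), lower than 98.5% of genes. *Dnmt3b* went from 80.6 to 63.4 CPM, at -0.35 (-0.43 to -0.26). The maintenance genes went the other way, *Dnmt1* from 148 to 178 CPM at 0.26 (0.21 to 0.31) and *Uhrf1* from 95.2 to 129 CPM at 0.43 (0.37 to 0.50). Under the study's stated barcode filters the *Dnmt1* ratio was -0.02 and that of *Uhrf1* 0.19. *Dnmt3a* stood at 65.1 and 66.6 CPM, at 0.03 (-0.05 to 0.12). The median of the 8 members was -0.16 and that of all genes 0.01.

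The libraries differed in what their germ barcodes were. Stem-marker barcodes made up 16.1% of germ barcodes in control and 32.0% in *Cnot3*-cKO, *Neurog3*-marker barcodes 7.85% and 0.914%, and *Kit*-marker barcodes 25.4% and 17.6%. Of all kept barcodes, however, germ barcodes made up 16.0% and 5.90% and stem-marker barcodes 2.58% and 1.89%. The study reports that its cluster of presumed stem cells decreased after the deletion. The median replication gene level of germ barcodes was 1589 CPM in control and 2060.2 CPM in *Cnot3*-cKO. Ratios were therefore also taken within classes.

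*Tet3* stayed lower within stages. Its log2 ratio of *Cnot3*-cKO over control was -0.44 (-0.76 to -0.12) in stem-marker, -0.45 (-0.66 to -0.26) in *Kit*-marker, -0.34 (-0.77 to 0.08) in *Meioc*-marker and -0.88 (-1.13 to -0.64) in no-marker barcodes. At the stage mix of the control library it was -0.49, from 55.1 to 39.2 CPM, short of 1.5-fold. With stages pooled, it was -0.36 (-0.64 to -0.09), -0.90 (-1.09 to -0.72) and -0.85 (-1.02 to -0.67) in the low, middle and high replication ranges. Within stem-marker barcodes the same ranges gave 0.28 (-0.58 to 1.05), -0.73 (-1.25 to -0.22) and -0.21 (-0.77 to 0.37). In *Kit*-marker barcodes they gave -0.58 (-1.74 to 0.39), -0.42 (-0.72 to -0.13) and -0.49 (-0.79 to -0.20). In no-marker barcodes they gave -0.66 (-1.14 to -0.21), -1.24 (-1.74 to -0.77) and -0.56 (-0.99 to -0.14). Without the split by range, the *Tet3* ratio was below 0 in 5 of 6 germ classes. The exception was the *Neurog3* class with its 5 *Cnot3*-cKO barcodes. 

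*Dnmt3b* did not keep 1 direction across stages. It was higher in *Cnot3*-cKO in stem-marker barcodes (0.29, 0.06 to 0.51) and lower in *Kit*-marker (-0.27, -0.41 to -0.12) and no-marker barcodes (-0.24, -0.43 to -0.06). At the control mix its ratio was -0.16.

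*Dnmt1* was higher in stem-marker (0.36, 0.26 to 0.47) and no-marker barcodes (0.39, 0.27 to 0.51). Its interval held 0 in *Kit*-marker (-0.07, -0.19 to 0.04) and *Meioc*-marker barcodes (-0.15, -0.41 to 0.10). At the control mix its ratio was 0.12, against 0.26 over all germ barcodes as they were. The replication genes summed to 1857 and 2398 CPM in stem-marker, 1467 and 2040 in no-marker and 1982 and 2162 in *Kit*-marker barcodes. Over all germ barcodes, the *Dnmt1* ratio in the low, middle and high replication ranges was 0.10 (-0.08 to 0.27), 0.00 (-0.08 to 0.09) and 0.03 (-0.05 to 0.10). These ranges held 550, 401 and 374 control barcodes and 74, 223 and 250 *Cnot3*-cKO barcodes. Within stages the ratios in the same ranges were more spread. In stem-marker barcodes they were 0.23 (-0.15 to 0.59), 0.00 (-0.18 to 0.18) and 0.25 (0.09 to 0.40). In no-marker barcodes they were 0.23 (-0.05 to 0.50), 0.31 (0.10 to 0.53) and -0.14 (-0.32 to 0.04). In *Kit*-marker barcodes they were -0.58 (-1.34 to 0.09), -0.18 (-0.36 to -0.004) and -0.06 (-0.22 to 0.10).

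*Uhrf1* was higher in *Cnot3*-cKO in stem-marker (0.42, 0.29 to 0.54), *Kit*-marker (0.19, 0.05 to 0.32) and no-marker barcodes (0.56, 0.42 to 0.70). Its ratios in the low, middle and high replication ranges were 0.38 (0.17 to 0.59), 0.07 (-0.04 to 0.18) and 0.16 (0.07 to 0.25). *Dnmt3a* had ratios of 0.05 in stem-marker, 0.22 in *Kit*-marker and -0.10 in no-marker barcodes.

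Of the 5 members with 100 or more UMIs in each class, 0 passed 1.5-fold in stem-marker barcodes, where 10.9% of genes did in either direction, and 0 in *Kit*-marker barcodes, where 5.23% did. In no-marker barcodes *Tet3* passed it downwards, as did 8.31% of genes.

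**Figure D3:**
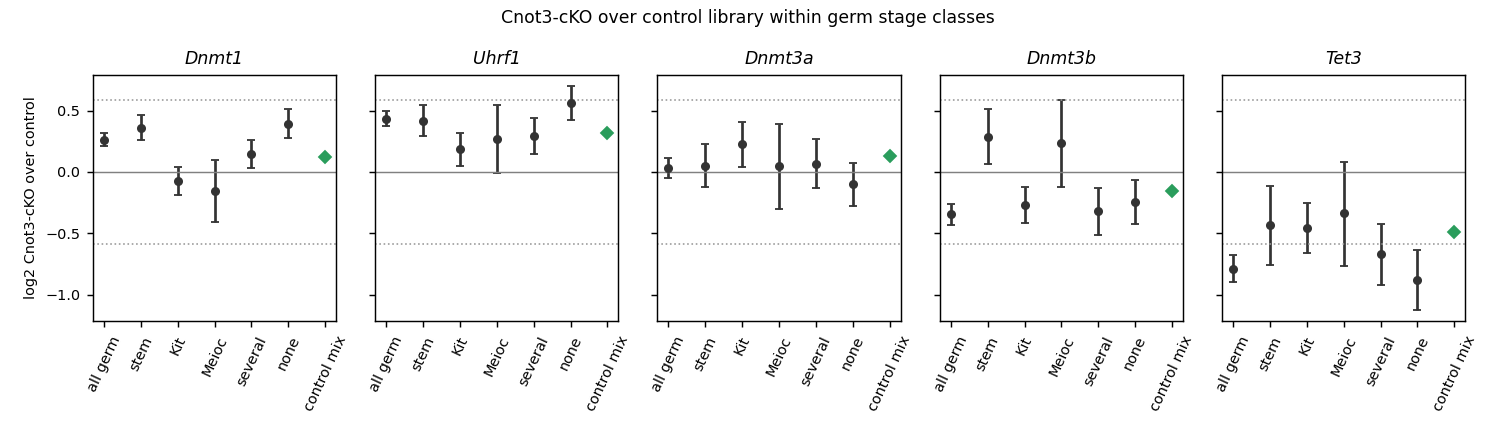
Log2 ratio of the *Cnot3*-cKO over the control library for 5 genes in all germ barcodes and in stage classes, with exact 95% counting intervals; dotted lines mark 1.5-fold. The green diamond is the ratio at the stage mix of the control library, with no interval. *Tet3* lies below 0 in every class drawn, and *Dnmt3b* on both sides of 0.

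*Tet1* (chr10:62804570-62908996, minus strand) and *Tet2* (chr3:133463679-133545139, minus strand) had their highest levels in somatic barcodes. *Tet1* stood at 36.5 and 38.8 CPM in interstitial-marker barcodes of control and *Cnot3*-cKO, at 13.01 and 14.1 CPM in Sertoli-marker barcodes and at 2.87 and 1.78 CPM in germ barcodes. *Tet2* stood at 26.2 and 26.4, 17.4 and 19.1, and 2.94 and 2.05 CPM in the same classes. The intervals of the 3 classes did not overlap for either gene.

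Their germ UMIs were few and lay in part in barcodes that also carried somatic RNA. Germ barcodes held 163 and 46 UMIs of *Tet1*, and without the 215 and 93 barcodes that also held 20 or more UMIs of a somatic marker list, 62 and 13 UMIs remained, 1.34 and 0.639 CPM. For *Tet2*, 167 and 53 UMIs became 77 and 22. Free RNA, estimated from the Sertoli genes at 2.36% and 2.19% of UMIs in those remaining barcodes, corresponds to 11.2 and 5.78 UMIs of *Tet1* and to 12.5 and 7.56 of *Tet2*. The barcodes had been kept for few UMIs of somatic markers, some of these Sertoli genes included, so the estimate may be low. After thinning, 2.68% of 1307 germ barcodes held *Tet1* in control, against 10.7% of 2612 Sertoli-marker and 29.7% of 3550 interstitial-marker barcodes. Unthinned shares were 9.28%, 15.7% and 39.4%.

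The *Tet1* genotype ratio in germ barcodes, -0.68 (-1.19 to -0.20), and that of *Tet2*, -0.52 (-0.99 to -0.06), stood beside different somatic content. The 6 interstitial markers, all 6 present, summed to 931 CPM in control germ barcodes and 780.5 CPM in *Cnot3*-cKO, and to 1194 and 419.8 CPM in the no-marker class, where *Tet1* stood at 4.35 and 2.02 CPM. In stem-marker barcodes the same markers summed to 683 and 1006 CPM, higher in *Cnot3*-cKO, where *Tet1* stood at 2.99 and 1.77 CPM on 26 and 15 UMIs. In interstitial-marker barcodes these markers summed to 25512 and 24264 CPM. The part of somatic RNA in these ratios was not tested. At the stage mix of the control library *Tet1* was at -0.79 and *Tet2* at -0.61, the 2 members lower by 1.5-fold there, as were 3.14% of 13321 genes. Under the study's stated filters the *Tet2* ratio was 0.36 and after thinning to 10000 UMIs 0.06. Without the mixed barcodes the *Tet1* ratio was -1.07 (-2.06 to -0.19) and that of *Tet2* -0.62 (-1.38 to 0.07). Neither gene then reached 100 UMIs, and *Tet3* was then the 1 member of 6 lower by 1.5-fold, at -0.81 (-0.94 to -0.68), where 3.82% of genes were.

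*Dnmt3l* (chr10:78041947-78063622, plus strand) was read at low levels. It stood at 1.58 CPM (1.27 to 1.94) in control and 1.67 CPM (1.21 to 2.24) in *Cnot3*-cKO germ barcodes, on 90 and 43 UMIs. The log2 ratio of 0.07 (-0.48 to 0.61) became 2.29 under the study's stated filters. In control it was at 3.46 CPM (2.01 to 5.54) in *Neurog3*-marker and 2.17 CPM in no-marker barcodes, and at 0.691 CPM in stem-marker and 0.590 CPM in *Kit*-marker barcodes on 6 and 9 UMIs. Sertoli-marker barcodes held 1 UMI in control and 0 in *Cnot3*-cKO, where a count of 0 allows up to 0.0503 CPM. The 70 UMIs of the low replication range in control made 3.07 CPM, against 0.277 CPM in the middle and 0.937 CPM in the high range, whereas *Cnot3*-cKO had 2.05, 1.33 and 1.86 CPM on 6, 14 and 23 UMIs.

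*Dnmt3a* (chr12:3806007-3914443, plus strand) varied least of the 8 members among the control germ classes. Germ classes of control lay between 60.6 and 72.8 CPM and those of *Cnot3*-cKO, without the *Neurog3* class, between 63.6 and 70.8 CPM, and Sertoli-marker barcodes stood above them at 101 and 106 CPM. 

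Germ over Sertoli-marker ratios summarise where each gene was read. In control 3 of 7 members were higher in germ barcodes, *Dnmt3b* by 2.73, *Uhrf1* by 2.26 and *Dnmt1* by 1.69 on the log2 scale, as were 39.3% of genes, and 3 were lower, *Tet2* at -2.57, *Tet1* at -2.18 and *Dnmt3a* at -0.63, as were 29.6%. *Tet3* was at -0.39 there. In *Cnot3*-cKO the same 3 were higher, at 2.32, 2.83 and 1.95, beside 36% of genes, and 4 were lower, beside 33.6%, since *Tet3* stood at -1.18.

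In Sertoli-marker barcodes all 7 members with 100 or more UMIs had log2 ratios from -0.13 for *Uhrf1* to 0.13 for *Tet2*, and 0 passed 1.5-fold, where 2.23% of genes did. *Tet3* stood at 72.2 and 72.6 CPM. In interstitial-marker barcodes 0 passed either, where 1.95% of genes did. *Uhrf1* was the member farthest from 0 there, at 15.3 and 11.1 CPM or -0.46 (-0.61 to -0.32), lower than 98.0% of genes and farther from 0 than its germ ratio of 0.43, with *Dnmt1* at 33.2 and 29.9 CPM or -0.15 (-0.25 to -0.06). The replication genes summed to 428 and 349 CPM in the same barcodes. Macrophage-marker barcodes were few, 36 and 48, and *Dnmt1* alone of the members reached 100 UMIs there. It stood at 37.9 CPM (24.5 to 56.0) on 25 UMIs in control and at 95.7 CPM (76.0 to 119) on 81 UMIs in *Cnot3*-cKO, with a log2 ratio of 1.34 (0.67 to 2.05), past 1.5-fold as were 6.59% of 2320 genes upwards. In these barcodes the replication genes summed to 529 and 714 CPM, and their part in the ratio was not tested. In the 29 and 37 endothelial-marker barcodes no member reached 100 UMIs.

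**Figure D4:**
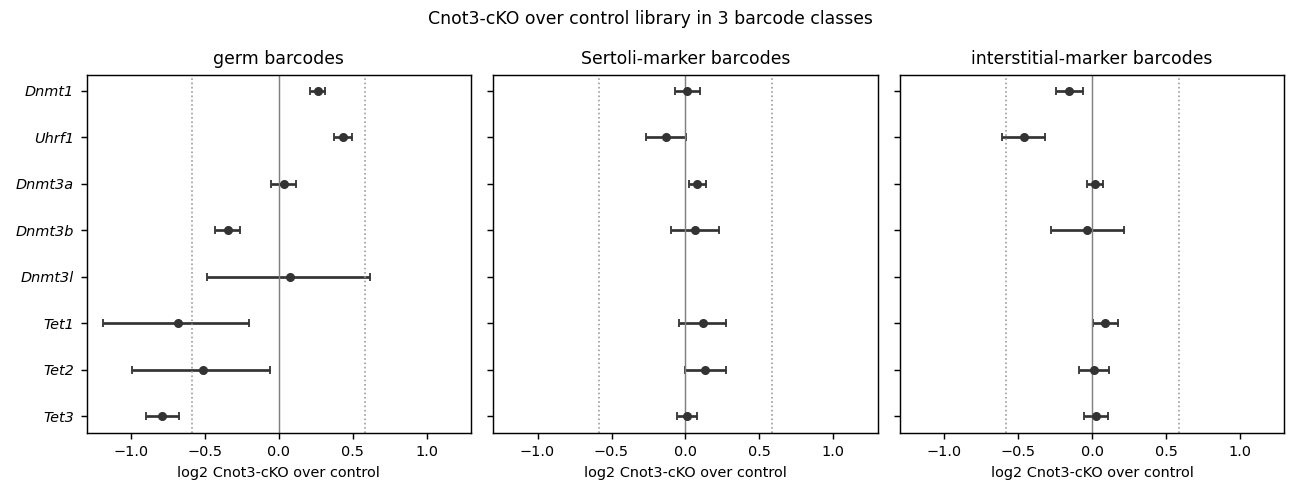
Log2 ratio of the *Cnot3*-cKO over the control library in germ, Sertoli-marker and interstitial-marker barcodes, with exact 95% counting intervals, for members with 100 or more UMIs; dotted lines mark 1.5-fold. *Tet3* is at -0.79 in germ barcodes and at 0.01 and 0.02 in the somatic classes, and *Uhrf1* is at 0.43 in germ and -0.46 in interstitial-marker barcodes.

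A near copy of *Dnmt3b*, the rodent gene *Dnmt3c* that methylates young transposons in male germ cells, is listed under a clone name and was matched by its identifier. It held 1 UMI in control and 0 in *Cnot3*-cKO germ barcodes. Reads shared by such copies may be left uncounted, so the level of *Dnmt3b* is uncertain to that extent. The antisense gene *Dnmt3bos*, which overlaps the start of *Dnmt3b*, held 61 and 17 UMIs, and whether counting used the strand is not given in the sources used here.

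Other genes of the pathway were taken as 6 lists, with 50 genes at 100 or more germ UMIs. Of the partners of maintenance and chromatin, 0 of 11 were higher by 1.5-fold, where 6.4% of 13321 genes were, and 1 was lower, where 3.42% were. That was *Dppa3*, whose product binds UHRF1, at 3.32 CPM on 189 UMIs in control and 0.969 CPM on 25 UMIs in *Cnot3*-cKO. This gives -1.78 on the log2 scale (-2.44 to -1.17). *Dppa3* was also higher in *Kit*-marker than in stem-marker barcodes of control, at 2.44 on the log2 scale. The ratios of all 6 lists are over all germ barcodes, and the part of the different stage mixes in them was not tested. The histone demethylase gene *Kdm1b* stood at 0.58 (0.45 to 0.71) and the imprint factor gene *Zfp57* at 0.38 (-0.03 to 0.79), and the median of the list was 0.19.

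In the other 5 lists 0 genes passed 1.5-fold in either direction, where 6.4% of all genes did upwards and 3.42% downwards. Readers of methylated DNA had a median of -0.11 over 8 genes, with *Zbtb38* at -0.34, *Mbd3* at -0.32 and *Zbtb33* at -0.20. Oxidation and repair genes had a median of 0.14 over 12, with *Gadd45g* at -0.46, *Xrcc1* at 0.37 and *Apex1* at 0.33. Genes of piRNA-directed methylation had a median of -0.02 over 8, with *Asz1* at 0.35, *Mael* at 0.32 and *Tex15* at -0.24. Methyl donor genes had a median of 0.16 over 9, with *Mthfd1* at 0.51, *Shmt1* at 0.33 and *Mtrr* at 0.27. Of the paralogs, *Trdmt1*, an RNA methyltransferase gene, stood at 0.32 and *Uhrf2* at 0.12.

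The genes with profiles most like the remaining members were, for *Dnmt3b*, *Tbl3*, *Mrpl55* and RP23-161B9.10 (r = 0.98, 0.97 and 0.97), for *Dnmt3a*, WI1-1616M8.2, *Gtf2ird1* and *Usp40* (0.90, 0.89 and 0.87), for *Tet1*, *Synpo* and *Serpinh1* (0.97 and 0.96) and for *Tet2*, *Ano6*, *Anxa6* and *Ltbr* (0.98, 0.98 and 0.97). *Tet3* had no close match, with *Map3k10*, *Nedd8* and *Ndufa3* at 0.74 each, and *Dnmt3l* had 177 UMIs over the profiles, too few to be compared.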

How the data were processed

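The deposited files hold unnormalized UMI counts, which the authors obtained with Cell Ranger 3.0.1 on mm10, per the submitters' processing notes and the study's methods. Both samples of a genotype, run on NextSeq and NovaSeq instruments, were merged in 1 matrix (181550221 UMIs in control and 168770743 in *Cnot3*-cKO), so neither samples nor runs could be compared.

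Called barcodes had at least 1/10 of the UMIs at the 99th percentile of the top 3000 barcodes and were kept at up to 20% mitochondrial UMIs, 8259 in control and 9268 in *Cnot3*-cKO (median 14475 and 13150 UMIs). The study's stated limits (10% mitochondrial UMIs, UMIs and genes within 2 SD of the mean) were an alternative. No doublet caller was run; barcodes with 20 or more UMIs of a somatic list were left out as an alternative. A somatic class needed 5 UMIs of its list and 3 times the next list; these 2 limits and the limit of 20 were set after the data had been seen. Counts were summed per class and library. Ratios needed 100 UMIs over both sides, and 1.5-fold is a size, not a test. On simulated Poisson counts for the germ comparison, 95.3% of intervals over 13334 genes held the true ratio. The simulation had no spread between barcodes or animals, so it checks only how the intervals were computed. All 8 members were named, with up to 3 genes per list by size and up to 3 per member by profile likeness; 1 gene that the rule names is not reported here. The software was Python 3.11.15, numpy 2.4.6 and scipy 1.17.1. The members, lists and tests were chosen with earlier results of these data known.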

Additional observations from a re-analysis of the deposited data

Results flagged for a closer look

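For 4 genes, 1 of them in 2 pairs of classes, the *Cnot3*-cKO over control log2 ratio had opposite directions in 2 classes of barcodes, with counting intervals clear of 0 in both; with 1 library per genotype, the difference between classes was not tested. *Dnmt1* was at 0.26 in germ and -0.15 in interstitial-marker barcodes, and *Uhrf1* at 0.43 and -0.46. *Dnmt1* was also at 1.34 in macrophage-marker barcodes. The summed replication genes were at 1713 and 2212 CPM in germ and at 428 and 349 CPM in interstitial-marker barcodes of control and *Cnot3*-cKO, and their part in these ratios was not tested beyond the replication ranges in germ barcodes. *Tet1* was at -0.68 in germ and 0.0892 in interstitial-marker barcodes. *Dnmt3b* was at 0.29 in stem-marker and -0.27 in *Kit*-marker barcodes.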

How the results depend on the processing

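No paired analysis was possible because the samples of each genotype are merged in 1 matrix whose columns carry no replicate number, and for the same reason no replicate could be left out. Of 302 recomputed ratios of single members, 257 moved by less than their counting interval and 13 by more than 1.5 times. Of 95 recomputed ratios that were past 1.5-fold, 95 kept their direction and 91 stayed past it. The germ ratio of *Tet3* lay between -1.02 and -0.68 over 11 alternatives and that of *Dnmt3b* between -0.52 and -0.34, while *Dnmt1* ranged from -0.02 to 0.28 and *Tet2* from -0.67 to 0.36. The count of members lower in *Cnot3*-cKO germ barcodes, 2 as reported, was 1 under the study's stated filters, without mixed barcodes and after thinning to 10000 UMIs, where 5.39%, 3.82% and 3.39% of all genes were lower by as much. It was 3 with free RNA subtracted, where 4.06% of genes were. Under the stated filters 0 members passed 1.5-fold with 100 UMIs between *Kit*-marker and stem-marker barcodes of *Cnot3*-cKO, where *Dnmt3b* was at 1.20 and *Tet3* at 1.77 on fewer UMIs; 7.99% of 713 genes passed it. With a stage minimum of 1 UMI, 1 member was lower in the *Kit* class, as were 3.41% of genes, and with 3 UMIs, 3 were lower in the no-marker class, as were 5.83%. At a common stage mix 2 members were lower, and 1 with the *Cnot3*-cKO mix, with a stage minimum of 3 UMIs or without mixed barcodes, beside 3.06%, 3.24% and 3.84% of genes. In macrophage-marker barcodes with no germ marker UMI, 0 members were higher with 100 UMIs, and *Dnmt1* was at 1.62 on fewer. Leaving out mixed barcodes within stages and against Sertoli-marker barcodes was chosen after seeing the data. With a split at the median in place of 3 replication ranges, the high over low ratio was 0.76 for *Dnmt1* and 0.99 for *Uhrf1* in control and 0.63 and 0.72 in *Cnot3*-cKO, over ranges that lie closer together. The cause of the other changes was not tested. Levels under 100 UMIs, as for *Dnmt3l*, *Tet1* and *Tet2* in single stage classes, are limited by depth.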
